A study of Mus musculus with 2 samples.

Results

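The genes of the major histocompatibility complex (MHC) and of antigen presentation were described in 2 libraries of total RNA from mouse hematopoietic stem cells (HSC), the cells of the bone marrow that give rise to all blood lineages. They were chosen by name and not by level: every protein-coding gene whose symbol starts with H2-, which gave 34 genes, together with B2m, Tap1, Tap2, Tapbp, Cd74, Ciita and Nlrc5. This gave 41 genes of the 21474 protein-coding genes that could be matched to a symbol, in gene tables of 69691 features. By the usual division, 2 of them encode classical class I heavy chains, 22 nonclassical class I chains and 9 class II chains. The 7 added genes are accessory genes, and H2-Ke6 carries the symbol of the complex although it encodes a metabolic enzyme.

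Both libraries belong to 1 group: HSC of male C57BL/6J mice aged 5 to 6 weeks, with no treatment or transgene named and no control group. Each was made with the ScriptSeq method from 100 ng of RNA depleted of ribosomal RNA, and the size range given was 172 to 1452 nt for replicate 1 and 232 to 1000 nt for replicate 2. The replicates are separate biosamples under 1 donor entry. The labels do not state whether they came from separate animals, how many mice were pooled or which surface markers were used to isolate the cells.

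Class I molecules present peptides made in the cell to CD8 T cells: a heavy chain encoded by an H2 gene pairs with beta-2-microglobulin, the product of B2m, and is loaded in the endoplasmic reticulum with peptides that the Tap1-Tap2 transporter brings in. Nonclassical class I molecules have the same fold but vary little between individuals, and several present special ligands or engage receptors of natural killer cells. Class II molecules present peptides from the endocytic pathway to CD4 T cells, assemble with the invariant chain encoded by Cd74, and depend on the transactivator Ciita, while Nlrc5 is the related transactivator of class I genes. Class II is known above all from professional antigen-presenting cells, whereas class I is made by nearly all nucleated cells.

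Several class I genes are close copies of each other, so the stretches that tell them apart carry the assignment of reads. In the coding sequence of the main coding transcript of each gene (GENCODE M21 annotation, GRCm38), H2-K1 was identical to H2-D1 at 91.5% of 1077 aligned bases, to H2-Q4 at 90.1% of 978, to H2-Q6 at 88.2% of 978, to H2-T23 at 82.2% of 1059, to H2-M3 at 71.3% of 996 and to H2-T22 at 69.5% of 1017. The 60 bases below are the stretch most alike over 8 class I genes (H2-K1, H2-D1, H2-Q4, H2-Q6, H2-Q7, H2-T22, H2-T23 and H2-M3), in which 39 positions were the same in all 8. H2-T24, identical to H2-K1 at 58.6% of 1035 aligned bases, is not among these 8 genes. The identity of H2-Q7 is left out because the coding sequence of its main coding transcript is short, at 645 bases. Capitals mark bases that differ from H2-K1.
H2-K1 (chr17:33999918-33999977, minus strand, exon 2): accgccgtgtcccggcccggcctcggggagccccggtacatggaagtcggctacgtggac
H2-D1 (chr17:35263405-35263464, plus strand, exon 2): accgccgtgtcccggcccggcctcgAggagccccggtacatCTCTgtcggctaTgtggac
H2-Q6 (chr17:35425134-35425193, plus strand, exon 2): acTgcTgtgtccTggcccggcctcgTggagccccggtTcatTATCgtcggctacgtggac
H2-T23 (chr17:36032337-36032396, minus strand, exon 2): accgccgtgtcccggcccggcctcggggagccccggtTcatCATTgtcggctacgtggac
H2-M3 (chr17:37270548-37270607, plus strand, exon 2): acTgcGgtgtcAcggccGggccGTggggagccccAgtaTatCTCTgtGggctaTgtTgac

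The next 60 bases are the stretch least alike, in which 12 positions were the same in all 8. They are shown because reads from such bases can tell some of the genes apart. H2-Q4 differs from H2-K1 at 3 of these bases, H2-D1 at 8, H2-Q6 at 9 and H2-Q7 at 11. H2-T23 differs at 15, H2-M3 at 22 and H2-T22 at 29. In the stretch most alike, H2-Q4 and H2-Q6 each differ from H2-K1 at 9 bases. The least alike stretch thus does not set these genes further from H2-K1.
H2-K1 (chr17:33999759-33999818, minus strand, exon 2): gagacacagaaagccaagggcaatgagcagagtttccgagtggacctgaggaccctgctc
H2-D1 (chr17:35263564-35263623, plus strand, exon 2): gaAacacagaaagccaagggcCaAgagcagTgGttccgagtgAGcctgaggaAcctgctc
H2-Q6 (chr17:35425293-35425352, plus strand, exon 2): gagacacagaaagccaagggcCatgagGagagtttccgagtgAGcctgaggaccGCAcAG
H2-T23 (chr17:36032178-36032237, minus strand, exon 2): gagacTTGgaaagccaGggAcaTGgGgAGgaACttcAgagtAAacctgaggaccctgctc
H2-M3 (chr17:37270707-37270766, plus strand, exon 2): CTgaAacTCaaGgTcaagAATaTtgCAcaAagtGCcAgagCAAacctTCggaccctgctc

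Upstream of the RefSeq gene starts, 4 members shared a compact block of motifs. For H2-D1 the block lies inside the gene as the GENCODE annotation draws it, from chr17:35262730. The motifs were searched on both strands in the 250 bases before the RefSeq start of 27025 mouse promoters (GRCm38.p6), of which 34 belonged to members. GGGATTCCC, an NF-kappa-B core, was in 0.307% of all promoters and in 4 member promoters, those of H2-K1, H2-D1, H2-Q6 and H2-Q7. GAANNGAAA, an interferon response core, was in 6.35% of all promoters and in 8 member promoters, adding H2-Q4, H2-Q10, H2-M2 and H2-M3 to those 4. The block of the 4 genes is printed from the first base of the NF-kappa-B core to the last base of the interferon response core, both in capitals. The letters between them number 11 in H2-K1, H2-D1 and H2-Q6 and 10 in H2-Q7, and none of the motifs searched overlaps another here.
H2-K1 (chr17:34000429-34000457, minus strand): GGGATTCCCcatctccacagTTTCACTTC
H2-D1 (chr17:35262924-35262952, plus strand): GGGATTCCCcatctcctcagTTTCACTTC
H2-Q6 (chr17:35424678-35424706, plus strand): GGGATTCCCcatctccccagTTTCACTTC
H2-Q7 (chr17:35439023-35439050, plus strand): GGGATTCCCatctccccagTTTCACTTC

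All 4 genes with this block were detected, beside 19 of the 34 members with a promoter, and they include both classical genes. H2-T23, whose level was close to that of H2-Q6, held neither core in its 250 bases, and H2-Q10 and H2-M2 held the interferon response core and were not detected. These promoters descend from common ancestors, so their matches are not independent, and a match of letters does not show that a factor bound. Only these exact letters were searched, so a promoter without a match may still hold a related form of the element. No promoter was matched for Ciita, Tap2, H2-Ab1, H2-Q1, Cd74, Nlrc5 and H2-T24.

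The whole upstream stretches of H2-K1 and B2m are shown because their products form 1 molecule. Capitals mark GGGATTCCC, GAANNGAAA, the CCAAT box (CCAAT, in 34.3% of all promoters and 30 of the 34 member promoters) and TGACG, the core of a cyclic AMP response element (17.8% of all promoters and 14 of 34). In B2m the TGACG began 78 bases and the CCAAT box 53 bases before the start, and in H2-K1 they began 41 and 16 bases before it. Lower case does not show that an element is absent. The B2m stretch holds gaaactgaaa, which is close to GAANNGAAA but has a longer gap and was not matched.
H2-K1 (chr17:34000348-34000597, minus strand): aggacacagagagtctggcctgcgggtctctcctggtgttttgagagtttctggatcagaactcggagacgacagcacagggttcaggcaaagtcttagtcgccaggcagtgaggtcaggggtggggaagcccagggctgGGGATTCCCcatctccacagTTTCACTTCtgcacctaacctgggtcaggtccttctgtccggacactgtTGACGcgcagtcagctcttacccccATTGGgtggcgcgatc
B2m (chr2:122147437-122147685, plus strand): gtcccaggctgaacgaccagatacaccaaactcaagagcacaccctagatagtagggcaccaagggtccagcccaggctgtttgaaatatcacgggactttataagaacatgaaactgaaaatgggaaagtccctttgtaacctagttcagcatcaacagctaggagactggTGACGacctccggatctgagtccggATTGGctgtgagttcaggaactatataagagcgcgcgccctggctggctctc

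The upstream stretches of 3 class II genes are shown because H2-Eb1 was detected and H2-Eb2, the neighbouring beta-chain gene, was not, and H2-Aa is shown as an alpha-chain gene. Capitals mark the same motifs. In H2-Aa the capitals before the CCAAT box are 2 overlapping TGACG matches on opposite strands. The H2-Eb2 stretch is 240 bases long and ends where the gene begins in the GENCODE annotation. H2-Eb1 had 2 CCAAT boxes and H2-Eb2 had 1, and neither held TGACG or the other cores.
H2-Aa (chr17:34287824-34288073, minus strand): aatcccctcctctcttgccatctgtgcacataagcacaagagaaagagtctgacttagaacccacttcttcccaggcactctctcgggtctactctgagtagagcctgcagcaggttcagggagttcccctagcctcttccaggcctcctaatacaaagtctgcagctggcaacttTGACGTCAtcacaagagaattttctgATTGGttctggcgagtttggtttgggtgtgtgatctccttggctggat
H2-Eb1 (chr17:34305617-34305866, plus strand): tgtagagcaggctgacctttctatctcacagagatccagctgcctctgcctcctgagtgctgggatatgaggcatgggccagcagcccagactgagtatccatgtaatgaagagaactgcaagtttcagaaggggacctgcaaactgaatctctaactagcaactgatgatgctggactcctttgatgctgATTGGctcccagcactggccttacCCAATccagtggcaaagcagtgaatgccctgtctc
H2-Eb2 (chr17:34325425-34325664, plus strand): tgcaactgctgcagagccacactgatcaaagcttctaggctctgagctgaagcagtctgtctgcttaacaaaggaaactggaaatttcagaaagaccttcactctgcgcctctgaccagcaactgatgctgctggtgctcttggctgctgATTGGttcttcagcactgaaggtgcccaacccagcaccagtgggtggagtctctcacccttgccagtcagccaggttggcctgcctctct

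The deposited tables give, for every gene, an expected count (an estimated number of fragments that need not be whole) and TPM, a relative transcript level that divides the count by the gene's effective length and scales all features of a library to the same total. They also give a lower and an upper bound of the TPM, whose confidence level the files do not state. The libraries held 27901074 counts in replicate 1 and 48490188 in replicate 2, at which 3 counts, the number that a count of 0 still allows, correspond to 0.108 and 0.0619 CPM (counts scaled to the same library total, with no division by length). Protein-coding genes made up 16.3% and 20.3% of all TPM, so each TPM here is a level within total RNA that is mostly not messenger RNA. The effective lengths imply mean fragments of 193 and 245 nt. All 8 HSC markers listed, among them Cd34 (145 and 166 TPM), Kit and Mecom, were above 1 TPM in both libraries.

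The members took 0.756% of the TPM of protein-coding genes in replicate 1 and 0.695% in replicate 2, from 120157 and 190096 counts. A gene was called detected at 1 TPM or more in both libraries. By this rule 24 of the 41 members (58.5%) were detected, beside 44.0% of all 21474 protein-coding genes. Of the 34 H2- genes alone 18 were detected (52.9%), so the H2- genes stood near the background and the accessory genes above it. The split ran by class: 2 of 2 classical, 7 of 22 nonclassical, 8 of 9 class II and 6 of 7 accessory genes were detected. H2-Ke6 was detected too. With coding transcripts only, 23 members were detected, since H2-DMb2 fell under 1 TPM.

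**Figure D1:**
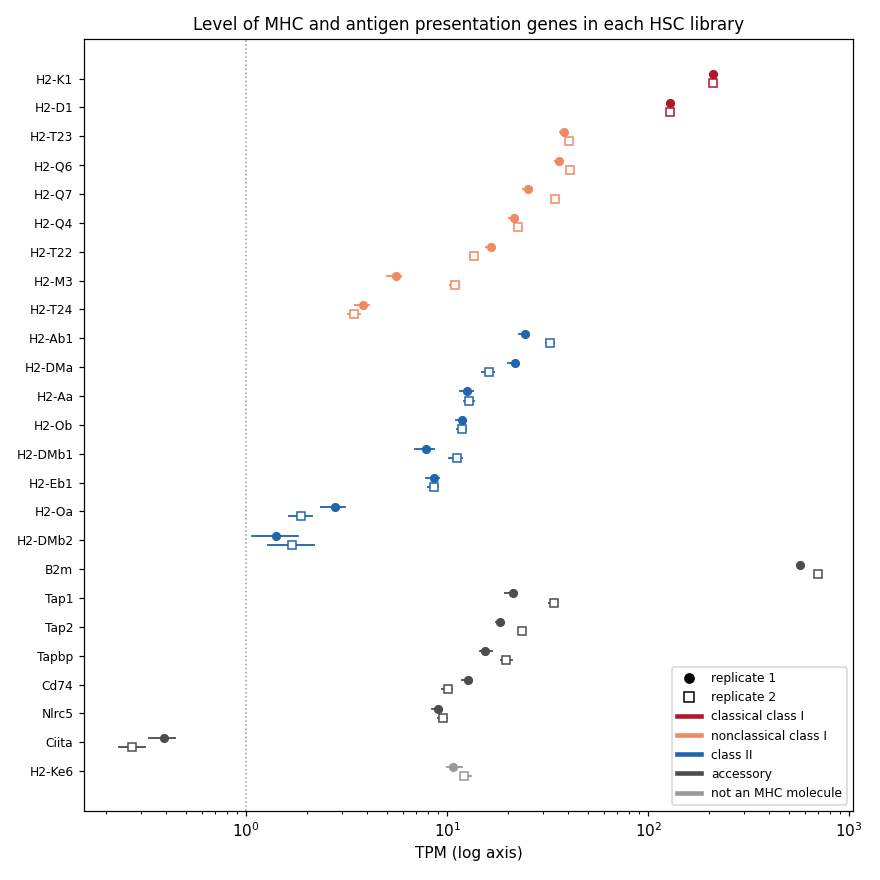
TPM (log axis) of the 25 members with a mean of at least 0.3 TPM, by class. Filled circles are replicate 1, open squares replicate 2, horizontal lines the deposited bounds, and the dotted line marks 1 TPM. B2m stands highest, the 2 classical genes follow, and Ciita alone lies left of the line.

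H2-K1 and H2-D1, which encode the classical heavy chains K and D, were the highest H2 genes in both libraries. By TPM over all features each was nearly the same in both, but other scales put both genes lower in replicate 2. By CPM H2-K1 stood at 898 in replicate 1 and 732 in replicate 2, and H2-D1 at 649 and 546. In TPM rescaled over protein-coding genes, H2-K1 stood at 1290 and 1032 and H2-D1 at 787 and 633. H2-K1 (chr17:33996017-34000347, minus strand) stood at 210 TPM in replicate 1 and 209 TPM in replicate 2, from 25058 and 35482 counts, a mean of 210 ± 0.587 TPM (SD, n = 2). H2-D1 (chr17:35262730-35267499, plus strand) stood at 128.2 and 128.4 TPM, from 18113 and 26476 counts, with a mean of 128 ± 0.127 TPM (SD, n = 2). Among protein-coding genes H2-K1 ranked 118 and 128 by TPM, and H2-D1 178 and 195. H2-K1 was above H2-D1 by 0.71 ± 0.01 on the log2 scale (SD, n = 2), which is 1.63-fold, and the deposited bounds of the pair were apart in both libraries. Without division by length the difference was 0.45.

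Of the 22 nonclassical genes, 7 were detected, and they lay in separate groups of the region. H2-T23, which encodes Qa-1, a ligand of the CD94-NKG2A receptor, stood at 38.2 TPM in replicate 1 and 40.3 TPM in replicate 2. H2-Q6 and H2-Q7, which encode Qa-2 chains, stood at 35.8 and 40.9 TPM and at 25.3 and 34.6 TPM. H2-T23 and H2-Q6 changed places between the libraries, so their order was not settled, while H2-Q6 was above H2-Q7 in both with bounds apart (0.37 ± 0.18 on the log2 scale, SD, n = 2).

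H2-Q4, another gene of the Q group, stood at 21.5 and 22.4 TPM, below H2-Q7 by bounds that were apart in both libraries. H2-T22, whose product is bound by some gamma-delta T cells, stood at 16.5 and 13.7 TPM. H2-M3, which presents N-formylated peptides, stood at 5.56 TPM in replicate 1 and 10.97 TPM in replicate 2, from 598 and 1699 counts. Its change of 0.97 on the log2 scale was the widest between the replicates among the detected members and lay just under the 2-fold line. H2-T24 was the lowest detected nonclassical gene, at 3.81 and 3.44 TPM.

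H2-D1, the lower of the classical genes, was 3.27-fold above H2-T23 and 4.33-fold above H2-Q7. H2-T23 was 2.60-fold above H2-T22 and 4.97-fold above H2-M3, again with bounds apart in both libraries. By letter group, the 6 H2-Q genes summed to 83.0 and 98.0 TPM with 3 detected, and the 4 H2-T genes to 58.6 and 57.6 TPM with 3 detected. The 12 H2-M genes summed to 5.56 and 10.97 TPM, all of it from H2-M3.

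The other 15 nonclassical genes were each under 1 TPM in both libraries. H2-Q10, known as a secreted class I molecule of the liver, stood at 0.45 and 0.05 TPM, from 130 and 25.3 counts, the reverse of the order of the library totals. H2-T3, which encodes the thymus leukemia antigen, had 21 and 28 counts (0.13 and 0.23 TPM), and its deposited upper bounds, 1.13 and 1.56 TPM, reached past the 1 TPM line. H2-Q1 had 0 and 11.01 counts. The remaining 12 (H2-Q2, H2-M1, H2-M2, H2-M5, H2-M9, H2-M11 and H2-M10.1 to H2-M10.6) had 0 counts in both libraries, and the highest deposited upper bound among them was 0.210 TPM in replicate 1 and 0.169 TPM in replicate 2.

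**Figure D2:**
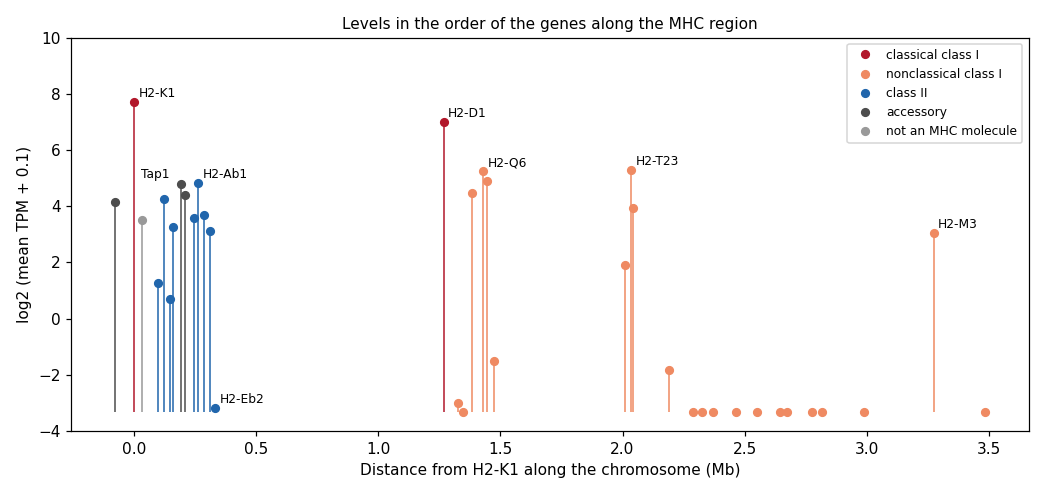
Mean TPM of the 37 members on chromosome 17, as log2 (mean TPM + 0.1), against the distance of each gene's lower coordinate from that of H2-K1 in Mb. The class II genes stand together within 0.330 Mb of H2-K1, the Q and T genes lie beyond H2-D1, and the H2-M genes lie at the baseline except H2-M3 at 3.27 Mb.

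Along the chromosome the detected nonclassical genes were interleaved with others that were not detected. H2-Q4, H2-Q6 and H2-Q7 lay at 1.38, 1.43 and 1.44 Mb from H2-K1, between H2-Q2 at 1.35 Mb with 0 counts and H2-Q10 at 1.47 Mb. H2-T24, H2-T23 and H2-T22 lay at 2.01, 2.03 and 2.04 Mb, and H2-T3 at 2.19 Mb was not detected. Every H2-M gene from 2.29 to 2.99 Mb was at 0 counts in both libraries. H2-M3, at 3.27 Mb, was the exception within its letter group.

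Of the 9 class II genes all but H2-Eb2 were detected, and each stood below both classical class I genes. H2-DMb2 passed 1 TPM only with a retained-intron transcript counted. H2-Ab1, the beta chain of the A molecule, was the highest, at 24.4 TPM in replicate 1 and 32.5 TPM in replicate 2, from 2019 and 4014 counts. Its alpha chain, H2-Aa, stood at 12.6 and 12.9 TPM. The log2 ratio of H2-Aa to H2-Ab1 was -1.14 ± 0.27 (SD, n = 2), which puts the beta chain 2.20-fold above its partner, with bounds apart in both libraries.

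H2-Eb1, the beta chain of the E molecule, stood at 8.64 and 8.57 TPM from 740 and 1045 counts, whereas H2-Eb2, the neighbouring beta-chain gene whose upstream bases are printed above, had 4 and 0 counts. H2-Ab1 was 3.24-fold above H2-Eb1. The 3 antigen-binding chains detected were therefore ordered H2-Ab1, H2-Aa, H2-Eb1 in both libraries.

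The chains that edit class II peptides were present beside the chains that present them. H2-DMa and H2-DMb1 form the DM molecule, which exchanges peptides on class II. H2-DMa stood at 21.7 and 16.1 TPM, H2-DMb1 at 7.87 and 11.2 TPM and the second beta-chain gene H2-DMb2 at 1.40 and 1.68 TPM. Of the H2-DMb2 level, 33.6% and 61.1% lay in H2-DMb1-202, a retained-intron transcript named for the other beta-chain gene. The coding transcript H2-DMb2-201 stood at 0.93 and 0.65 TPM. H2-Oa and H2-Ob form the DO molecule, which restrains DM. H2-Ob stood at 11.8 and 11.9 TPM and H2-Oa at 2.75 and 1.87 TPM, so the beta chain was 5.05-fold above the alpha chain (10.1-fold in replicate 1 and 13.9-fold in replicate 2 by CPM). In the DM pair the order was the other way, with H2-DMa 1.98-fold above H2-DMb1. In coding transcripts alone H2-DMa stood at 9.25 and 8.76 TPM and H2-DMb1 at 6.61 and 8.51 TPM, which is 1.40-fold and 1.03-fold.

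H2-DMa also stood 1.57-fold above H2-Ob by TPM, but below it by CPM (a log2 difference of -0.56 without division by length). In coding transcripts alone H2-DMa, at 9.25 and 8.76 TPM, was also below H2-Ob, at 9.97 and 8.9 TPM. In sums, the H2-A and H2-E chains made up 45.6 and 53.9 TPM, the H2-DM chains 31.0 and 29.0 TPM and the H2-O chains 14.6 and 13.8 TPM.

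Cd74, the invariant chain that class II needs for its assembly, stood at 12.7 TPM in replicate 1 and 10.04 TPM in replicate 2, from 1178 and 1360 counts. Its log2 ratio to H2-Ab1 was -1.31 ± 0.53 (SD, n = 2), which puts H2-Ab1 2.48-fold higher, and the bounds were apart in both libraries. Against the sum of the 9 class II genes Cd74 came to 0.139 and 0.104. Ciita, the class II transactivator, was the lowest accessory gene and was not detected by the 1 TPM rule: it stood at 0.39 and 0.27 TPM, from 171 and 178 counts. Nlrc5, the class I transactivator, stood at 8.96 and 9.48 TPM, far above Ciita. As Ciita lay under 1 TPM, the size of that difference depended on the pseudocount: the log2 ratio of Ciita to Nlrc5 was -4.45 with 0.1 and -2.94 with 1. In coding transcripts alone Nlrc5 was 6.69-fold and 12.96-fold above Ciita.

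B2m was the highest member of all, at 568 TPM in replicate 1 and 701 TPM in replicate 2, from 32757 and 56001 counts, and ranked 27 and 28 among protein-coding genes. It alone made up 46.1% and 49.7% of the members' summed TPM. All 24 class I heavy-chain genes together summed to 486 and 504 TPM, so by TPM B2m stood at 1.17 and 1.39 times the level of its partners. In counts, which are not divided by length, the order turned, with B2m at 0.506 and 0.579 of the 64716 and 96648 counts of the heavy chains. B2m was 3.01-fold above H2-K1 and 4.91-fold above H2-D1 by TPM. By CPM it was 1.31-fold and 1.58-fold above H2-K1 in replicates 1 and 2, and 1.81-fold and 2.12-fold above H2-D1.

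With all transcripts counted, the loading machinery lay within the range of the detected nonclassical genes. In coding transcripts alone Tap1 stood at 19.0 and 21.6 TPM and Tap2 at 2.91 and 3.64 TPM. In replicate 1 this put Tap2 below H2-T24, the lowest detected nonclassical gene, at 3.81 TPM. Tap1, at 21.2 and 33.8 TPM, was above Tap2, at 18.3 and 23.7 TPM, by 0.36 ± 0.21 on the log2 scale (SD, n = 2). By CPM the direction turned (-0.11 on the log2 scale), with Tap1 at 134 and Tap2 at 137 CPM in replicate 1 and no order by bounds. Tapbp, the tapasin that bridges the transporter to class I, stood at 15.4 and 19.7 TPM, 1.53-fold below Tap1. H2-Ke6, an oxidoreductase gene that lies among these genes, stood at 10.7 and 12.2 TPM.

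**Figure D3:**
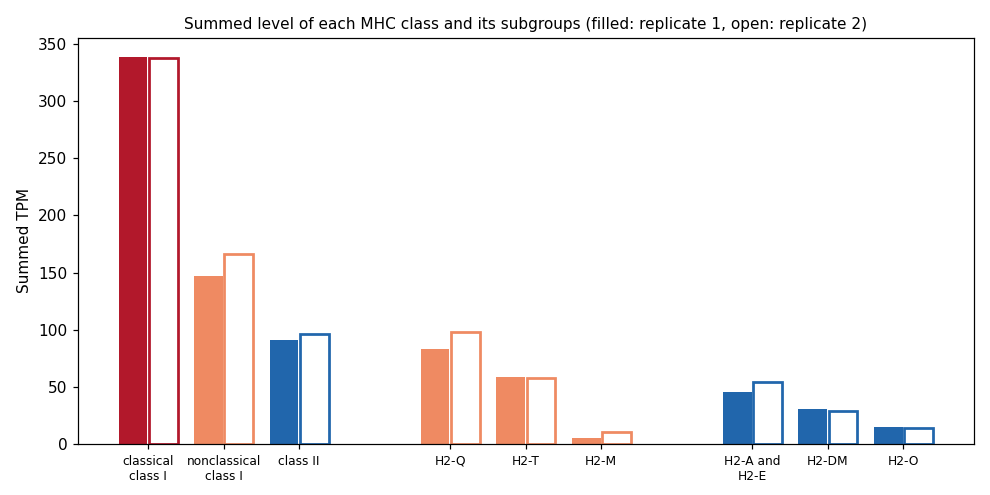
Summed TPM by class (left), by letter group of the nonclassical class I genes (middle) and by molecule for class II (right). Filled bars are replicate 1 and open bars replicate 2. The classical sum is 338 TPM in both libraries, above 147 and 167 for nonclassical and 91.2 and 96.7 for class II.

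Compared by class, the 2 classical genes outweighed the 22 nonclassical and the 9 class II genes in both libraries. Their summed TPM was 338.4 in replicate 1 and 337.8 in replicate 2, with a mean of 338 ± 0.460 (SD, n = 2). By CPM both classical genes were lower in replicate 2, so this small SD belongs to the scale of TPM over all features. The nonclassical genes summed to 147 and 167 TPM (157 ± 13.8) and the class II genes to 91.2 and 96.7 TPM (93.9 ± 3.87). Of the H2 class TPM, classical genes held 58.7% and 56.2%, nonclassical genes 25.5% and 27.7% and class II genes 15.8% and 16.1%. In counts the same sums were 43171 and 61958 for classical, 21545 and 34690 for nonclassical and 8566 and 13028 for class II.

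The classical sum was above the nonclassical sum by 1.11 ± 0.13 on the log2 scale (SD, n = 2), or 2.16-fold, and above the class II sum by 1.85 ± 0.06, or 3.60-fold. The class II sum was below the nonclassical sum by a log2 difference of -0.74 ± 0.07. These differences were larger than the spread between the libraries. An exact sign-flip permutation over 2 libraries cannot go below p = 0.5, so no test was run and the values stand as a description.

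The sums and the typical gene of a class gave different orders below classical class I. The median nonclassical gene was at 0 TPM, and the median class II gene at 8.64 TPM in replicate 1 and 11.2 TPM in replicate 2. Taking genes across classes by their deposited bounds, both classical genes were above each nonclassical gene in all 44 pairings and above each class II gene in all 18, in both libraries. Of 198 pairings of a nonclassical with a class II gene, the class II gene was higher in 131 and the nonclassical gene in 47, and 20 had no order that held in both libraries.

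By TPM, all 24 listed gene pairs with both genes protein coding kept 1 order with bounds apart in both libraries. The pairs were chosen with earlier results of these data known, so this tally only describes them. Bounds were also apart between the replicates for 7036 of 9900 protein-coding genes, so they do not cover the spread between libraries. By CPM, the direction turned for Tap1 with Tap2 and for H2-DMa with H2-Ob, and 23 pairs were ordered by bounds. Tap1 and Tap2 had no such order, since they stood at 134 and 137 CPM in replicate 1. The members' deposited TPM did not always lie within its own bounds: it lay outside them for 16 members in replicate 1 and 14 in replicate 2. The values above the upper bound were H2-K1 and B2m in replicate 1 and B2m in replicate 2. The others were at or near 0, below the lower bound.

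**Figure D4:**
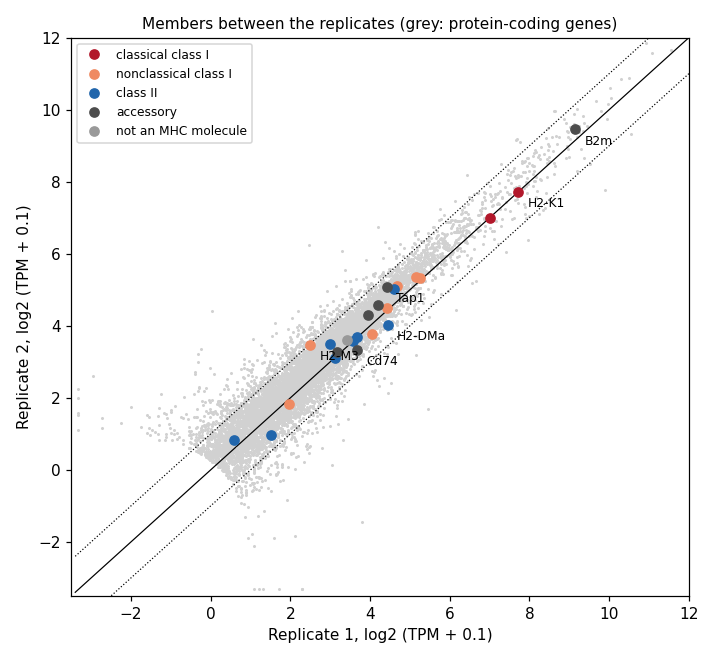
Log2 (TPM + 0.1) in replicate 1 against replicate 2 for members with a mean of at least 1 TPM, coloured by class, over the 9900 protein-coding genes with the same minimum in grey. The solid line marks equal levels and the dotted lines a 2-fold difference; no member lies outside the dotted lines with bounds apart.

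The members were also compared between the replicates. A gene was called apart where its mean was at least 1 TPM, its levels differed by over 2-fold and its bounds did not overlap. None of the 24 members with this minimum was apart, beside 2.26% of 9900 protein-coding genes that were apart and higher in replicate 1 and 7.01% that were apart and higher in replicate 2. At a 1.5-fold line 2 members were apart, H2-M3 and Tap1, both higher in replicate 2. Tap1 differed on the TPM scale alone, since by CPM it stood at 134 and 135, whereas H2-M3 stood at 21.4 and 35.0 CPM. Without the minimum H2-Q10 was apart, higher in replicate 1.

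Bounds alone were apart for 14 of the 24 members, and for 7036 of the 9900 genes. The members' log2 ratio of replicate 2 over replicate 1 ran from -0.53 (H2-Oa) to 0.97 (H2-M3), with 17 members higher in replicate 2 (70.8%, beside 74.0% of the 9900 genes) and 7 in replicate 1. By CPM the tally turned, with 8 members higher in replicate 2 and 16 in replicate 1. The share of the 9900 genes was not taken on the CPM scale, so that tally has no background. The members' median log2 ratio by TPM was 0.08, beside 0.29 over all protein-coding genes with the same minimum. By TPM the members thus stood below the general shift between the libraries. With counts scaled by TMM, which centres the libraries on most genes, the medians were -0.21 and 0.02, and with DESeq2 size factors they were -0.20 and 0.02.

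**Figure D5:**
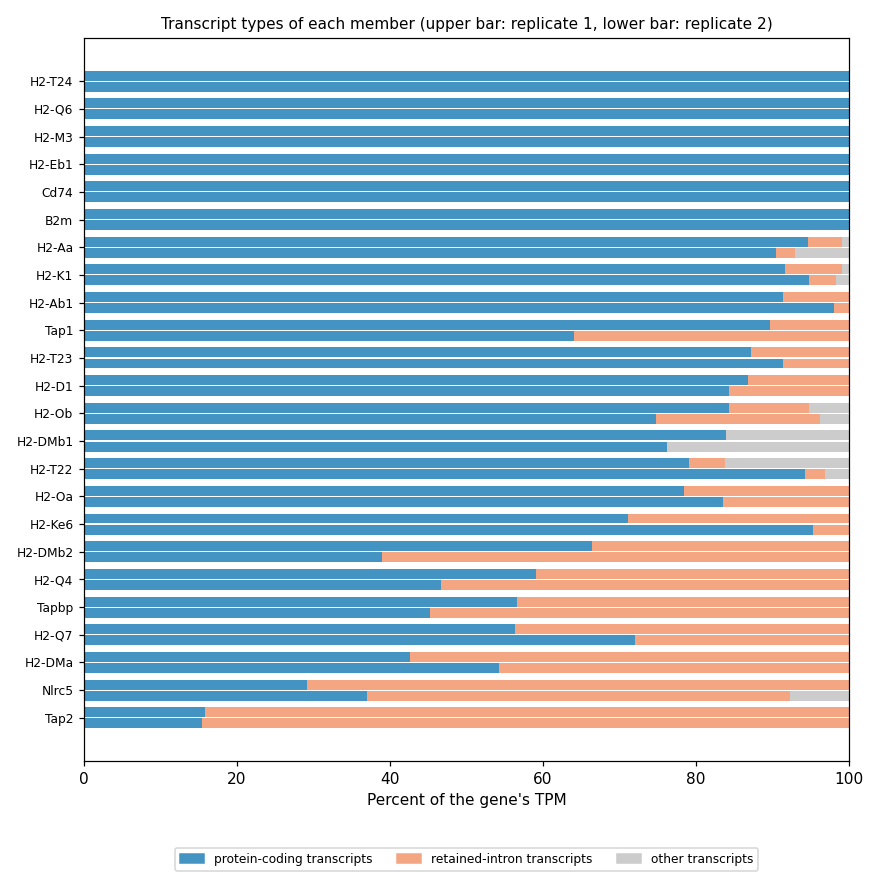
Percent of each detected member's TPM in protein-coding (blue), retained-intron (orange) and other (grey) transcripts; the upper bar of each pair is replicate 1 and the lower bar replicate 2. Tap2 and Nlrc5, at the bottom, have most of their TPM in retained-intron transcripts, while 6 members at the top have all of it in coding ones.

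The gene levels above pool all transcripts of a gene, and for some members most of the level lay in transcripts that do not encode the protein. Tap2 had 84.2% and 84.6% of its level in Tap2-202, annotated as a retained-intron transcript. Its coding transcripts came to 2.91 and 3.64 TPM. Nlrc5 had 63.6% and 51.3% in the retained-intron transcript Nlrc5-203, and its coding transcript Nlrc5-201 stood at 2.61 and 3.50 TPM.

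Tapbp-204, a retained-intron transcript, took 41.7% and 54.8% of Tapbp, H2-DMa-202 took 57.4% and 45.7% of H2-DMa, and H2-Q4-202 took 40.9% and 53.4% of H2-Q4. H2-Q7-206 took 28.2% and 22.5% of H2-Q7. For Tap1 the share changed between the libraries: the retained-intron transcript Tap1-203 stood at 0.88 TPM in replicate 1 and 10.9 TPM in replicate 2, while the coding transcripts stood at 19.0 and 21.6 TPM. The difference of Tap1 between the replicates lay mostly in this transcript.

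The classical genes were mostly in coding transcripts. H2-K1 had 58.1% and 51.9% in H2-K1-205 and 33.1% and 41.3% in H2-K1-201, both coding, and H2-D1 had 81.5% and 81.3% in the coding H2-D1-202 beside 13.1% and 15.7% in the retained-intron H2-D1-204. Cd74 had 75.1% and 63.7% in Cd74-201 and 24.9% and 36.3% in Cd74-202, which encode the short and the long form of the invariant chain. B2m, H2-Q6, H2-Eb1 and H2-M3 had their whole level in 1 coding transcript. By class, coding transcripts held 89.8% and 90.8% of the classical level, 80.7% and 84.3% of the nonclassical and 78.7% and 83.2% of the class II level.

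Reads can be shared between the copies, and the amount differed by gene. Of all windows of 50 bases in its transcripts, H2-K1 shared 9.63% exactly with another gene, H2-D1 12.8%, H2-T23 13.6%, H2-Q4 21.8%, H2-Q7 26.4%, H2-Q6 32.0% and H2-T22 34.5%, of which 31.2% with H2-T10. H2-M3 shared 0.576%, and H2-Ab1, H2-Eb1, H2-DMa, H2-Oa, H2-Ob, B2m and Cd74 none. H2-DMb1 and H2-DMb2 shared 22.7% and 24.8%. H2-Ke6 shared 70.5% with Gm20427, which overlaps it. Of the detected members, H2-Ke6, H2-T22, the Q genes and the DMb genes thus shared from 21.8% to 70.5% of their windows and are the least certain by this measure.

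The deposited posterior SD of the count, which measures that split, was at most 0.207% of the count for the detected class I genes and at most 2.98% for class II, in H2-DMb2. In addition 11 members have an exon that overlaps another gene, 9 of them on the opposite strand, among them Tap1 with Psmb9 and H2-DMa with Brd2. Neither labels nor files state whether the counting used strand, so for these the reads of the 2 genes may not be separate.

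Among the other genes of the class I pathway, the immunoproteasome and its activator were present throughout, with 5 of 5 genes detected, from Psmb10 (12.01 and 7.58 TPM) to Psme1 (62.7 and 75.0 TPM). Psmb8, the inducible subunit that replaces Psmb5, stood at 62.8 and 63.0 TPM against 6.65 and 5.81 TPM for Psmb5, a 9.97-fold difference. For the other pairs the constitutive subunit was higher: Psmb6 was 1.55-fold above Psmb9, and Psmb7 (36.1 and 68.7 TPM) was above Psmb10 by 3.004-fold in replicate 1 and 9.07-fold in replicate 2. All 7 measured genes of peptide trimming and class I folding were detected, with Calr highest (239 and 385 TPM) and Tapbpl lowest (3.75 and 6.08 TPM). Beside these lists and those below, 44.0% of all protein-coding genes were detected.

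RNA of genes known as inputs to MHC genes was present as well, and whether they acted on the members was not tested. All 10 interferon receptor and signalling genes were detected, from Ifngr2 (1.32 and 1.76 TPM) to Ifnar2 (21.5 and 30.0 TPM). All 8 genes of the complex that binds the X and Y boxes of MHC promoters were detected, from Rfxank (1.62 and 1.10 TPM) to Creb1 (14.4 and 19.3 TPM). Rfxap of this list was apart between the replicates by TPM, at 4.44 and 14.7 TPM, but stood at 11.8 and 13.2 CPM, from 329 and 639 counts.

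On the class II side, 5 of 8 genes of peptide processing and class II turnover were detected, with the protease gene Ctsd highest (34.3 and 29.0 TPM) and Cd83 lowest (0.26 and 0.56 TPM). March8, a ligase of this list, was apart, at 2.00 and 4.07 TPM (26.4 and 38.4 CPM). Of 6 costimulation genes 2 were detected, Cd86 (2.27 and 3.66 TPM) and Cd274 (3.67 and 4.54 TPM), and Cd80 had 8 and 0 counts. Of 10 MHC-like genes outside the complex 4 were detected, with Cd1d1 highest (13.7 and 10.9 TPM), and Azgp1, Raet1d, Raet1e, H60b and H60c had 0 counts in both libraries.

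Markers of other cell types were read beside the class II genes. Of 8 B cell markers 1 was detected, Cd79b (4.89 and 3.25 TPM), the list summed to 5.21 and 3.26 TPM, and Pax5 and Cd22 had 0 counts in both libraries, with deposited upper bounds of up to 1.28 TPM (Pax5, replicate 2). Of 9 dendritic cell markers 1 was detected, Flt3 (57.9 and 53.2 TPM), which early progenitors also express. The list summed to 59.6 and 55.4 TPM, nearly all of it Flt3, and Siglech had 0 counts in both libraries.

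Of 8 monocyte and macrophage markers 1 was detected, Ly6c2 (24.9 and 11.5 TPM). This list summed to 28.5 TPM in replicate 1 and 13.2 TPM in replicate 2, with Ly6c2 and Csf1r (1.58 and 0.61 TPM) apart and Marco at 0 counts in both. Cd74, H2-DMa and H2-Oa were likewise higher in replicate 1, while H2-Ab1 and H2-DMb1 were higher in replicate 2. The part of such cells in these values was not tested, and in RNA from many cells a few cells with much class II RNA and many cells with little cannot be told apart. Of 6 measured T and NK cell markers 1 was detected, Cd4 (1.61 and 1.19 TPM), with Cd8a at 0 counts. Of 5 endothelial markers 3 were detected, with Pecam1 highest (8.13 and 9.46 TPM), Tek apart (1.28 and 2.59 TPM) and Cdh5 at 0 counts.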

How the data were processed

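Total RNA-seq of 2 HSC libraries was analysed from the deposited gene and transcript tables, made on mm10 with GENCODE M4 per the text files deposited with the samples; for the aligner, counter and strand setting: not given in the sources used here. All deposited expected counts, posterior counts and their SD are estimates per gene or transcript, not normalized. The deposited TPM and posterior mean TPM were scaled by the authors to the same total per library, and the deposited FPKM per kilobase and library total. The deposited TPM bounds were treated as a score on the TPM scale, and the deposited isoform percent is a transcript's share of its gene.

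Of 43346 mouse gene IDs, 42462 matched GENCODE M21 by ID without version. Log2 ratios used TPM + 0.1. With 1 group of 2 libraries, no test was run; values are per library or mean ± SD. The members, lists, pairs and motifs were chosen with earlier results of these data known. Named were all classical, class II and added genes, other H2- genes with a mean of 1 TPM or at least 10 counts in both libraries, and of each other list the highest, the lowest, those in a pair, at 0 or apart. H2-Q1, Kit, Mecom, Cd86, the transcript Tap1-203 and the genes at 0 outside the marker lists were named after their values were seen. Coding sequences were aligned with MAFFT 7.526; TMM came from edgeR 4.0.16 and size factors from DESeq2 1.42.0 on rounded expected counts. 1 marker gene is not reported here. The rule for genes apart was tested on simulated data with a fixed spread and no difference in fragment length between the libraries. That run does not give the share of false calls in these data. Counting limits cover counting error only. Promoters are RefSeq's, GRCm38.p6.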

Additional observations from a re-analysis of the deposited data

How the results depend on the processing

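The 2 libraries give only a spread, and no paired analysis was possible because there is 1 group. Of the main results, 47 values under alternatives stayed as reported, 17 moved by more than the spread between the libraries or by over 1.5 times, and 2 reversed. The median log2 ratio of the members between the replicates reversed to -0.21 with TMM and -0.20 with DESeq2 size factors, by the construction of these scalings. At a 1.5-fold line 2 members were apart, and 1 without the minimum mean.

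The sums of classical, nonclassical and class II genes were 976, 451 and 270 in FPKM and 1871, 862 and 518 in TPM rescaled over protein-coding genes, by the change of scale. With coding transcripts only, an alternative chosen after seeing the data, they were 305, 130 and 76.1 TPM, and with posterior mean TPM the classical sum was 334. The log2 ratio of classical over nonclassical was 0.92 in CPM and 1.24 with coding transcripts, of classical over class II 2.29 and 2.01, and of class II over nonclassical -1.37 in CPM. Of the log2 ratios of gene pairs, 14 values moved with CPM or a pseudocount of 1 and kept their direction, while Tap1 over Tap2 reversed to -0.11 and H2-DMa over H2-Ob to -0.56 in CPM, where length is not divided out.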

Other observations

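Beside the protein-coding members, 11 other features carry an H2- symbol and are annotated as pseudogenes of some kind. Of these, 7 had 0 counts in both libraries, among them H2-Ea-ps, the alpha-chain gene of the E molecule, which is known to be inactive in C57BL/6 mice; H2-Eb1, its beta-chain partner, stood at 8.64 and 8.57 TPM. H2-Q5 stood at 5.94 TPM in replicate 1 and 8.70 TPM in replicate 2, above the detected member H2-T24, and its counts went the other way (452 and 266). H2-T10, which shares 31.2% of the 50-base windows of H2-T22, stood at 2.82 and 3.39 TPM, H2-K2 at 0.91 and 0.81 TPM and H2-T-ps at 0.58 and 0.53 TPM.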
